A study of Mus musculus with 55 samples.

Results

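Cholesterol synthesis and its control by the SREBP transcription factors were followed through 8 mouse genes in embryonic stem (ES) cells leaving mitosis. The genes were Srebf1, Srebf2, Insig1, Hmgcs1, Idi1, Fdft1, Sqle and Lss. They were chosen by symbol, and all 8 were listed in both deposited tables of pre-mRNA levels. In all, 9911 genes were listed for CCNA-GFP cells, 10237 for CTCF-AID cells and 9574 for both.

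Pre-mRNA, the intron-containing form of each transcript, was quantified by ribo-depleted RNA-seq in 55 libraries of E14Tg2a ES cells (129/Ola background) grown in serum and LIF. For synchrony, cells were held for 4 h by the CDK1 inhibitor RO-3306 (10 µM) and for another 4 h by the microtubule poison nocodazole (50 ng/ml), and the loosened mitotic cells were then shaken off. CCNA-GFP cells, marked by a fluorescent Cyclin A reporter of the cell cycle, gave 19 libraries: 3 asynchronous, 3 mitotic, 1 at 50 min after release and 2 each at 20, 30, 40, 60, 90 and 120 min. CTCF-AID cells, a single clone in which auxin (IAA) triggers degradation of the genome organiser CTCF, gave 18 libraries without IAA and 18 with it. Each of these arms held 3 asynchronous libraries, 3 mitotic ones and 2 each at 20, 40, 50, 60, 90 and 120 min, with no library at 30 min. IAA was given at 0.5 mM for 2 h, over the later part of the nocodazole step, and was kept in the medium during release. Asynchronous cells of this arm were instead given IAA for 4 h.

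Values are TPM, a measure of transcript number scaled to gene length and to the library, so levels of different genes are per length and can be set beside each other within a table. The 2 tables were normalised separately, so the lines are set side by side and no difference between them was tested. Where 3 values follow each other, they are those of CCNA-GFP cells, of CTCF-AID cells without IAA and of CTCF-AID cells with IAA, in that order. The TPM of all listed genes summed to 13747 to 17245 in the mitotic CCNA-GFP libraries and to 30992 to 42576 at 60 min. The same sums were 18606 to 23302 and 38416 to 39173 in CTCF-AID cells without IAA, and 17777 to 22522 and 37872 to 38314 with IAA. Most listed genes thus rose on this scale. The median log2 fold change of all genes against mitosis, to which the changes of the members below can be compared, was 0.26, 0.34 and 0.30 at 40 min, 0.79, 0.63 and 0.63 after 60 min and 0.68, 0.34 and 0.35 at 120 min. Scaling every library to the same total moved that median at 60 min in CCNA-GFP cells to 0.02. Low values in each library were whole multiples of a step, the size of which no source used here explains. This step was 0.0186 to 0.0217 TPM in asynchronous and 0.0217 to 0.0259 TPM in mitotic CTCF-AID cells without IAA, 0.0184 to 0.0197 and 0.0213 to 0.0245 TPM with IAA, and 0.0230 to 0.0291 and 0.0281 to 0.0348 TPM in CCNA-GFP cells. Its part in the comparisons with asynchronous cells was not tested beyond dividing each library by its step. In bulk RNA, fewer cells with a transcript and less transcript per cell cannot be told apart. Of 8 pluripotency markers 7 were listed in both tables, with Sox2 not listed, and they summed to 25.1 to 94.4 TPM per CCNA-GFP library and to 36.6 to 113 TPM per CTCF-AID library. None of 6 primitive endoderm markers was listed, and of 6 fibroblast markers only Col1a1 and Thy1 were, in the CTCF-AID table, at a sum of 0.146 to 3.42 TPM. Replicate libraries of a stage correlated across genes with a Spearman rho of 0.918 to 0.984, and no pair held the same values.

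Cells make cholesterol from acetyl-CoA through the mevalonate pathway, squalene and lanosterol. When membrane sterol is low, the SREBP proteins encoded by Srebf1 and Srebf2 are carried from the endoplasmic reticulum to the Golgi by SCAP, cut by proteases and enter the nucleus, where they activate the genes of this pathway. INSIG proteins hold SCAP back when sterol is plentiful, and Insig1 is itself an SREBP target, which closes a feedback loop.

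The genes lie on 6 chromosomes of the mouse GRCm38 build, in GENCODE vM21 annotation. Srebf1 spans chr11:60199089-60222581 on the minus strand, with Rai1 overlapping on the other strand. Srebf2 spans chr15:82147181-82205379 on the plus strand and holds Mir33 within it. Insig1 spans chr5:28071363-28078662, Hmgcs1 chr13:119690379-119708260, Idi1 chr13:8885501-8892451, Sqle chr15:59315077-59331192 and Lss chr10:76531588-76557138, all on the plus strand. Fdft1 spans chr14:63145150-63179578 on the minus strand, where Ctsb overlaps it on the other strand. Other annotated transcripts also overlap Hmgcs1 (Gm48342), Lss (4930483K19Rik) and Idi1 (Gm48574) on the other strand. The shortest members were Idi1 at 6951 bp and Insig1 at 7300 bp, and the longest was Srebf2 at 58199 bp.

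Promoter windows from 250 bases before to 50 bases after a RefSeq start (GRCm38.p6) were available for 6 of the 8 members, which excludes Fdft1 and Sqle. The windows were searched on both strands for the sterol regulatory element core TCACNCCA, the E-box CACGTG, the NF-Y box CCAAT and the Sp1 box GGGCGG. These are shown for Hmgcs1 and Srebf2, the 2 members whose window held the sterol element core, and for Insig1, the member whose window held the E-box. The sequences run 5′ to 3′ on the plus strand, up to the annotated gene or its start, and capitals mark every match to one of these motifs.
Hmgcs1, chr13:119690101-119690350: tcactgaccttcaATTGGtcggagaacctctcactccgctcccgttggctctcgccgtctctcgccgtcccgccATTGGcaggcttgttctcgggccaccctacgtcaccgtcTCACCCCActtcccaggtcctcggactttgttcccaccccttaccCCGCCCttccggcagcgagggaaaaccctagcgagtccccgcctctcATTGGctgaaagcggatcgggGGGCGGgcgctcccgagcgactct
Srebf2, chr15:82147019-82147180: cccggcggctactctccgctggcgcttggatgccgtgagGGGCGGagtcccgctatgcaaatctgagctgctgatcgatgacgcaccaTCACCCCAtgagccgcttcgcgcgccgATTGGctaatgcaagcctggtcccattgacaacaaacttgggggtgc
Insig1, chr5:28071162-28071362: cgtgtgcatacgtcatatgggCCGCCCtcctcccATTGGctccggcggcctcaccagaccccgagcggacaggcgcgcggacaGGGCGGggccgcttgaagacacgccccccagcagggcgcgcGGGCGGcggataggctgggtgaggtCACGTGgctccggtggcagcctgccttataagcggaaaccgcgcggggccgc

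The sterol element core began at an offset of -137 from the RefSeq start of Hmgcs1 and of -162 from that of Srebf2, in both as TCACCCCA. Of 32851 mouse promoter windows of this length 4.36% held it. The E-box began at -101 in Insig1, and 7.15% of windows held one. NF-Y boxes were in 37.4% of windows and Sp1 boxes in 35.7%. None of the members' windows held the CTCF core motif, which 3.43% of windows held. A match is a description of letters and says nothing of binding.

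The first question was when each gene came back after mitosis. None of the 8 passed the test at 20 min in either line. At 40 min 7 of the 8 had risen over mitosis in CCNA-GFP cells (all genes 49.3%), and all 8 in both arms of CTCF-AID cells (63.3% without and 58.7% with IAA). At 60 min all 8 had risen in both lines and with or without IAA, as had most genes (88.3%, 84.8% and 82.2%). Insig1 and Idi1 led at 40 min, with mean levels 4.59 to 7.22 times those of mitosis.

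**Figure D1:**
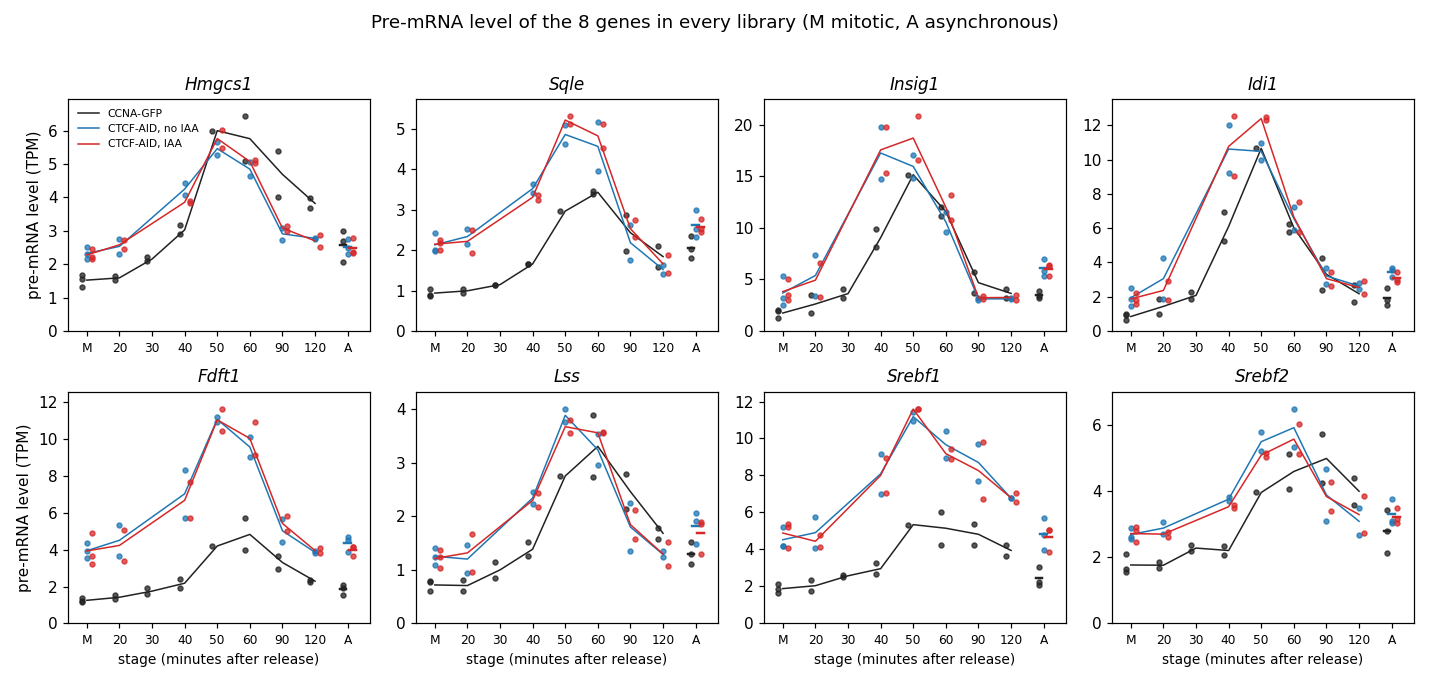
Pre-mRNA level (TPM, y axis) of each gene at each stage (x axis, evenly spaced: mitotic, minutes after release, asynchronous), with a point for each library and a line or bar through the stage means of CCNA-GFP cells (black) and of CTCF-AID cells without (blue) and with IAA (red). All 8 genes peak between 40 and 90 min, and Insig1 and Idi1 reach the highest multiples of their mitotic level.

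In CCNA-GFP cells the number of members above mitosis (limma, adjusted p under 0.05) was 0 at 20 min, where 0.00% of all 9911 genes were called higher, and 0 at 30 min, where 0.303% were. It was 7 at 40 min (all genes 49.3%), 8 after 60 min (88.3%), 8 at 90 min (89.1%) and 8 after 120 min (90.2%). Asynchronous cells were above mitosis for 7 members (all genes 70.4%), all but Srebf1 at 0.25 (SE 0.11, adjusted p = 0.0503). The exception at 40 min was Srebf2. Both exceptions lay close to the threshold and were called with either other pseudocount, with the filter at a mean of 1 TPM, without a trend and with each library divided by its step, and Srebf1 also without replicate 1. The call of Fdft1 in asynchronous cells was lost without replicate 2 (0.29, adjusted p = 0.0559), without replicate 3 (0.32, adjusted p = 0.0672) and without the replicate block (0.33, adjusted p = 0.0504). At unadjusted p under 0.05 the counts were 2 at 20 min (253 of all 9911 genes) and 3 after 30 min (1135 genes). Insig1 and Idi1 passed at 30 min when replicate 2 was left out or when each library was divided by its step. Both also passed there with the filter at a mean of 1 TPM, and Idi1 with a pseudocount of 0.1. Without replicate 1 the calls of Sqle and Fdft1 at 40 min were lost. Most genes were called from 60 min on, so the counts there are close to the background.

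Against the median of all genes the members rose further at 40 and 60 min on the log2(TPM + 1) scale of the fit. Their median log2 fold change against mitosis in CCNA-GFP cells was 0.54 at 40 min and 1.38 at 60 min, where the medians of all genes were 0.26 and 0.79. All 8 lay above the all-gene median at both times on this scale. As a ratio of mean TPM, Srebf2 at 40 min was instead below it, at 1.25 beside 1.32 for all genes. With every library scaled to the same total, 4 members were called at 40 min (all genes 23.7% higher), 6 at 60 min (36.4%) and 3 at 90 min (31.8%), all of them higher. At 120 min the medians were 0.81 for the members and 0.68 for all genes, and with the same total no member was called either way (all genes 28.7% higher and 23.5% lower). As ratios of mean TPM at 120 min to mitosis, Sqle, Insig1, Fdft1 and Srebf1 lay below the 2.17 of all genes. Hmgcs1, Idi1, Lss and Srebf2 lay above it. In asynchronous cells against mitosis that scaling left 1 member higher, Sqle, and 1 lower, Srebf1 (24.8% and 20.3%).

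Without IAA, 0 members of CTCF-AID cells were higher than in mitosis at 20 min (all 10237 genes 0.00%), against 8 after 40 min (63.3%), 8 at 50 min (79.1%) and 8 after 60 min (84.8%). Then the count fell to 4 at 90 min (74.8%) and 1 after 120 min (69.6%), while 1 member, Sqle, was lower than in mitosis at 120 min (all genes lower 3.15%). In asynchronous cells 3 members were higher (34.3%), namely Insig1, Idi1 and Lss. All 8 were, beside 66.0% of genes, when each library was divided by its step. The calls of Insig1 (adjusted p = 0.0646) and Lss (adjusted p = 0.113) in asynchronous cells were lost without the replicate block. The median of the members at 60 min was 1.00 beside 0.63 for all genes, and at 120 min it was 0.12 beside 0.34. At 120 min 7 of the 8 thus lay below the all-gene median, Srebf1 being the exception. Scaled to the same total, 1 member was higher and 4 were lower at 90 min (all genes 34.5% and 25.6%), and 6 were called at 120 min, each of them below mitosis (25.9%). Without replicate 3, which leaves 1 library at 90 min, 3 of the 4 calls after 90 min and all 3 in asynchronous cells were lost, and without replicate 1 another 2 members, Idi1 and Srebf2, were called higher at 120 min.

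In CTCF-AID cells with IAA the counts of members above mitosis were 0 after 20 min (all genes 0.00%), 8 at 40 min (58.7%), 8 after 50 min (78.2%), 8 at 60 min (82.2%), 6 after 90 min (73.8%) and 2 at 120 min (68.2%). The 2 at 120 min were Srebf1 and Srebf2. In asynchronous cells 3 members were higher (40.9%), again Insig1, Idi1 and Lss, and 6 were, beside 67.1% of genes, when each library was divided by its step. These 3 calls were lost without the replicate block (adjusted p = 0.0843, 0.0505 and 0.152). That of Lss was also lost without a trend (adjusted p = 0.0514) and without replicate 2 (adjusted p = 0.0522). Scaled to the same total, 5 members were higher at 40 min and 1, Srebf2, was lower (all genes 33.2% and 38.6%). At 60 min 4 members were called, each of them higher (all genes 40.7%). That scaling gave 0 higher and 4 lower at 90 min (36.8% and 27.4%), in place of 6 higher, and 6 lower at 120 min (28.7%), while in asynchronous cells 2 were higher and 2 lower (29.8% and 22.4%). Without replicate 3 all 6 calls at 90 min and all 3 in asynchronous cells were lost, and the 2 calls after 120 min were lost without replicate 2, as was that of Srebf2 at 40 min. The call of Srebf2 at 120 min was also lost without replicate 3 (adjusted p = 0.127) and with each library divided by its step (adjusted p = 0.0929). Without the replicate block Srebf2 lost its calls at 120 min (adjusted p = 0.24) and 40 min (adjusted p = 0.0964). Without replicate 1 another 4 members, Hmgcs1, Idi1, Fdft1 and Lss, were called higher at 120 min.

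**Figure D2:**
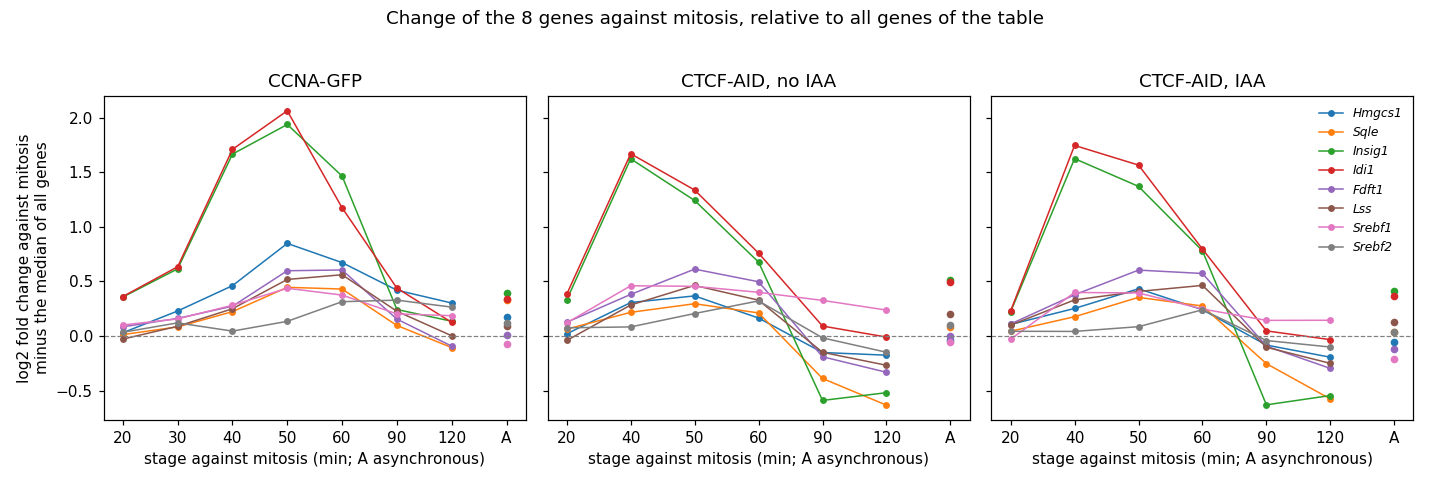
Log2 fold change against mitosis minus the median of all genes of the table (y axis) at each stage (x axis, evenly spaced) for the 8 genes, in CCNA-GFP cells and in both CTCF-AID arms; the dashed line is the median of all genes. Insig1 and Idi1 stand highest at 40 to 60 min, and in the CTCF-AID arms Insig1 and Sqle lie lowest at 120 min.

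Srebf1 and Srebf2 encode the SREBP factors themselves. Srebf1 gives SREBP-1a and SREBP-1c, which favour fatty acid genes, and Srebf2 gives SREBP-2, which favours cholesterol genes. In CCNA-GFP cells Srebf1 was 1.85, 1.66 and 2.14 TPM in the mitotic libraries, 3.26 and 2.66 at 40 min, 5.34 after 50 min, 6.05 and 4.24 at 60 min, 3.67 and 4.22 after 120 min and 2.06, 2.23 and 3.05 in asynchronous cells. The libraries at 60 and 120 min lay above every mitotic and asynchronous one. The log2 fold change at 60 min against mitosis was 1.17 (SE 0.13, adjusted p = 4.96e-08). In CTCF-AID cells without IAA Srebf1 stood at 4.18, 4.2 and 5.2 TPM in mitosis, and reached 10.9 and 11.4 TPM at 50 min and 10.4 and 8.94 TPM at 60 min, 1.03 (SE 0.11, adjusted p = 7.58e-09). With IAA it was 5.37, 4.09 and 5.2 TPM in mitosis and 9.44 and 8.91 TPM at 60 min, 0.88 (SE 0.11, adjusted p = 9.13e-08). No library at 60 min overlapped a mitotic one.

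In CCNA-GFP cells Srebf2 was 1.64, 1.56 and 2.11 TPM in mitosis, 2.19 and 2.37 after 30 min, 2.36 and 2.06 at 40 min and 5.14 and 4.07 after 60 min. It was 4.25 and 5.74 TPM at 90 min, 3.6 and 4.41 TPM at 120 min and 2.15, 2.79 and 3.43 in asynchronous cells. In replicate 1, the only one measured at both 60 and 90 min, the level at 60 min was the higher. The libraries at 40 min overlapped those of mitosis, the highest of which was 2.11 TPM. Its log2 fold change was 0.31 (SE 0.13, adjusted p = 0.0507) at 40 min, 1.11 (SE 0.13, adjusted p = 7.97e-08) after 60 min and 1.06 (SE 0.13, adjusted p = 1.88e-07) at 90 min. In CTCF-AID cells its highest stage mean was that of 60 min, with 5.35 and 6.5 TPM without IAA and 5.13 and 6.03 TPM with it, after 2.57, 2.61 and 2.9 TPM and 2.92, 2.45 and 2.79 TPM in mitosis. Its log2 fold change at 60 min was 0.96 (SE 0.10, adjusted p = 1.16e-08) without IAA and 0.87 (SE 0.10, adjusted p = 4.55e-08) with IAA. Relative to the all-gene median, Srebf2 at 40 min stood at 0.04, 0.08 and 0.04 in the order above, and with the same total its direction at 40 min turned in all 3, to -0.12, -0.07 and -0.12. Its ratios of mean TPM at 40 min to mitosis were 1.25, 1.40 and 1.30, below the medians of 1.32, 1.43 and 1.37 for all genes.

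Insig1, the feedback regulator that retains SCAP, rose early and fell far. In CCNA-GFP cells it was 1.95, 1.26 and 2.02 TPM in mitosis, 3.53 and 1.71 at 20 min, 4.04 and 3.22 after 30 min and 9.94 and 8.17 at 40 min. The single library at 50 min held 15.2 TPM, followed by 12 and 11.1 after 60 min, 3.64 and 5.74 at 90 min, 3.23 and 4.07 after 120 min and 3.22, 3.85 and 3.43 TPM in asynchronous cells. Every library from 40 to 60 min lay above all others of this line. The log2 fold change was 1.93 (SE 0.19, adjusted p = 2.27e-07) at 40 min and 2.26 (SE 0.19, adjusted p = 1.13e-09) after 60 min, the latter above 99.6% of genes.

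For Insig1, CTCF-AID cells without IAA held 5.35, 2.56 and 3.16 TPM in mitosis, 7.4 and 3.37 at 20 min, 19.8 and 14.8 after 40 min, 17.1 and 14.8 at 50 min and 9.65 and 11.5 after 60 min. It then dropped to 3.24 and 3.0 TPM at 90 min and 3.08 and 3.16 at 120 min, below the 6.97, 5.87 and 5.38 TPM of asynchronous cells. The libraries at 90 and 120 min lay within the range of the mitotic ones. With IAA the values were 5.0, 2.97 and 3.51 TPM in mitosis, 6.62 and 3.25 at 20 min, 19.8 and 15.3 after 40 min, 20.8 and 16.6 at 50 min, 10.8 and 13.2 after 60 min, 3.08 and 3.39 at 90 min, 3.05 and 3.45 after 120 min and 6.42, 6.28 and 5.33 in asynchronous cells. The log2 fold change at 40 min was 1.96 (SE 0.21, adjusted p = 2.81e-08) without IAA, above 99.6% of genes, and 1.92 (SE 0.21, adjusted p = 3.77e-08) with IAA. At 20 min replicate 1 stood above replicate 2 in both lines and arms, as it did in mitosis, and no call was made.

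Hmgcs1 encodes HMG-CoA synthase, an early enzyme of the mevalonate pathway. CCNA-GFP cells held 1.32, 1.56 and 1.69 TPM in mitosis, 3.16 and 2.89 at 40 min, 6.0 after 50 min, 6.43 and 5.09 at 60 min, 3.67 and 3.97 after 120 min and 2.06, 3.0 and 2.7 in asynchronous cells. The libraries at 60 and 120 min were above all mitotic and asynchronous ones. At 60 min its log2 fold change was 1.46 (SE 0.13, adjusted p = 2.63e-09). In CTCF-AID cells it went from 2.52, 2.29 and 2.15 TPM in mitosis to 5.65 and 5.28 TPM at 50 min without IAA and from 2.47, 2.16 and 2.21 to 6.04 and 5.49 TPM with IAA. There the log2 fold change at 60 min was 0.80 (SE 0.08, adjusted p = 3.1e-09) and 0.87 (SE 0.08, adjusted p = 6.7e-10).

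Idi1 encodes isopentenyl diphosphate isomerase, which balances both isoprenoid building blocks, and its course was the closest to that of Insig1. In CCNA-GFP cells it was 0.976, 0.631 and 0.928 TPM in mitosis, 1.85 and 1.02 at 20 min, 2.29 and 1.86 after 30 min, 6.94 and 5.25 at 40 min, 10.7 after 50 min, 6.24 and 5.8 at 60 min, 2.38 and 4.24 after 90 min, 1.69 and 2.66 at 120 min and 1.54, 2.49 and 1.8 in asynchronous cells. The libraries at 40 and 60 min overlapped one another and lay above all mitotic, early and asynchronous ones. CTCF-AID cells without IAA held 2.48, 1.46 and 1.86 TPM in mitosis, 12 and 9.2 at 40 min, 9.98 and 11 after 50 min, 5.92 and 7.21 at 60 min, 2.44 and 2.79 after 120 min and 3.66, 3.54 and 3.17 in asynchronous cells. With IAA the same stages held 2.19, 1.59 and 1.82, 12.5 and 9.01, 12.3 and 12.5, 5.77 and 7.53, 2.16 and 2.91 and 2.95, 3.45 and 2.88 TPM. The libraries at 60 min lay below those at 40 and 50 min in both arms. The log2 fold change at 40 min was 1.97 (SE 0.19, adjusted p = 2.46e-07) in CCNA-GFP cells, 2.01 (SE 0.20, adjusted p = 9.04e-09) without IAA and 2.04 (SE 0.20, adjusted p = 6.63e-09) with IAA. In CCNA-GFP cells the single library at 50 min was 12.6 times the mitotic mean, and of the stages with 2 libraries that after 40 min was the highest, at 7.22 times, beside a median of 1.32 for all genes at 40 min. The highest stage mean was 5.48 and 6.63 times mitosis without and with IAA. For Insig1 the single library at 50 min was at 8.69 times and the mean after 60 min at 6.63 times, beside 2.47 for all genes at 60 min, and the CTCF-AID ratios were 4.68 and 4.89. The medians of all genes at their own highest stage were 2.30 and 2.36 there.

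Fdft1 encodes squalene synthase, the first enzyme committed to sterols. In the CCNA-GFP libraries Fdft1 was 1.22, 1.16 and 1.38 TPM in mitosis, 2.42 and 1.94 at 40 min, 5.71 and 3.96 after 60 min and 2.24 and 2.35 at 120 min, and in CTCF-AID cells without IAA it was 4.39, 3.54 and 3.91, 8.33 and 5.74, 10.1 and 9.06 and 3.81 and 3.91 TPM. At 60 min no library overlapped mitosis in either line, while at 120 min those of CTCF-AID cells lay within the mitotic range. Against mitosis the log2 fold change of Fdft1 at 60 min was 1.40 (SE 0.13, adjusted p = 3.01e-09) in CCNA-GFP cells, 1.13 (SE 0.12, adjusted p = 9.48e-09) without IAA and 1.21 (SE 0.12, adjusted p = 3.13e-09) with IAA.

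Sqle encodes squalene epoxidase, a rate-limiting enzyme of sterol synthesis. In CCNA-GFP cells it was 0.871, 0.897 and 1.04 TPM in mitosis, 3.39 and 3.46 at 60 min, 1.58 and 2.1 after 120 min and 1.8, 2.35 and 2.04 in asynchronous cells, with a log2 fold change at 60 min of 1.22 (SE 0.11, adjusted p = 2.02e-09). Sqle levels in CTCF-AID cells without IAA were 2.41, 2.0 and 1.97 TPM in mitosis, 4.61 and 5.09 at 50 min, 3.96 and 5.16 after 60 min, 1.75 and 2.61 at 90 min, 1.42 and 1.62 after 120 min and 2.53, 2.33 and 2.98 in asynchronous cells. Both libraries at 120 min were below every mitotic and every asynchronous one. Against mitosis this was -0.29 (SE 0.11, adjusted p = 0.0271), a call that was lost without replicate 1 (-0.17, adjusted p = 0.246) and without replicate 2 (-0.37, adjusted p = 0.0514). With IAA Sqle was 2.17, 2.25 and 2.0 TPM in mitosis, 4.52 and 5.12 at 60 min and 1.43 and 1.89 at 120 min, where the log2 fold change against mitosis was -0.23 (SE 0.11, adjusted p = 0.0796) and no call was made.

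Lss encodes lanosterol synthase, which closes the sterol rings, and its mitotic mean was the lowest of the 8 in both lines and arms. Lss in CCNA-GFP cells was 0.766, 0.598 and 0.787 TPM in mitosis, 1.52 and 1.25 at 40 min, 3.88 and 2.72 after 60 min, 1.58 and 1.78 at 120 min and 1.1, 1.29 and 1.51 in asynchronous cells. The same stages held 1.41, 1.1 and 1.24, 2.44 and 2.23, 2.95 and 3.53, 1.23 and 1.34 and 1.92, 1.48 and 2.06 TPM in CTCF-AID cells without IAA. The libraries at 60 min lay above all mitotic and asynchronous ones in both lines. Against mitosis Lss at 60 min had a log2 fold change of 1.35 (SE 0.12, adjusted p = 2.21e-09) in CCNA-GFP cells, 0.96 (SE 0.13, adjusted p = 2.2e-07) without IAA and 1.10 (SE 0.13, adjusted p = 2.77e-08) with IAA.

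The members differed in how soon they rose. To describe this, the rise over the mitotic mean at 40 min was divided by that after 60 min, for the members and for all genes at least 1.5-fold above mitosis at 60 min. In CCNA-GFP cells Idi1 had made 102% of its 60 min rise by 40 min (113% and 89.4% in the replicates) and Insig1 74.3% (79.3% and 69.9%), beside a median of 24.6% over 8008 genes. Srebf2 had made 15.5%, and the other 5 members 25.8% to 35.5%. In CTCF-AID cells without IAA, where the median was 50.4% over 7234 genes, Insig1 stood at 197% and Idi1 at 188%, so both were past their highest level by 60 min, and Srebf2 stood at 33%. With IAA the median was 45.5% over 7046 genes, and the values were 168% for Insig1, 186% for Idi1 and 28.5% for Srebf2. The replicates of Insig1 spread from 137% to 335% without IAA and from 120.3% to 256% with it, and those of Idi1 from 135% to 278% and from 125% to 289%, replicate 1 being the higher each time. All of these lay above every value of the other 6 members.

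**Figure D3:**
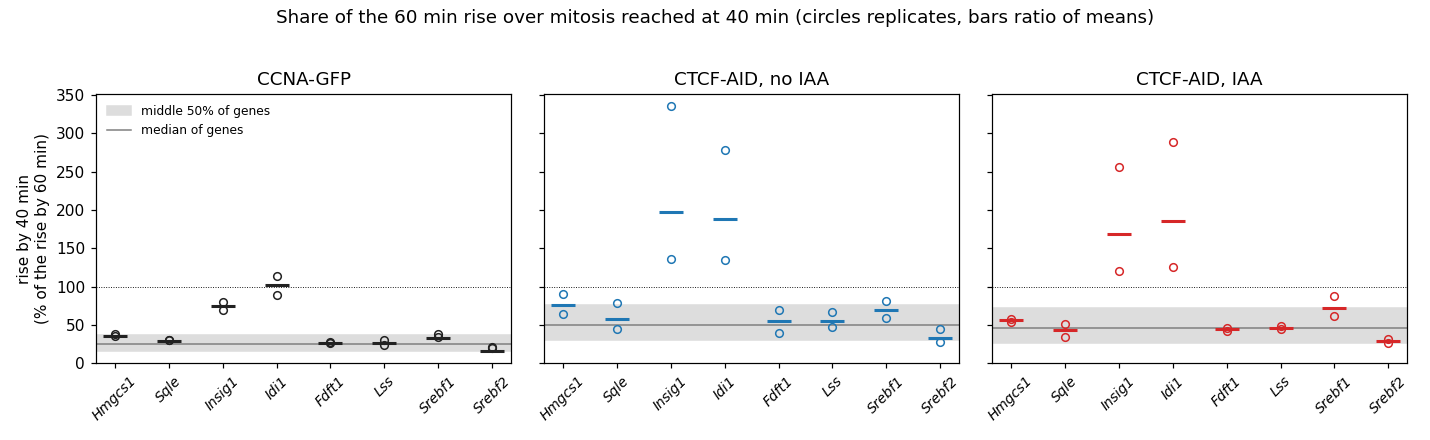
Rise over mitosis at 40 min as a percentage of that at 60 min (y axis) for each gene (x axis) in CCNA-GFP cells and in both CTCF-AID arms, with circles for the replicates, bars for the ratio of mean levels and a grey band for the middle 50% of genes around their median. Idi1 and Insig1 lie above the band in all 3 panels.

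Gene length moved with this measure. Over all genes the Spearman correlation of length with the share of the rise made by 40 min was -0.64 (n = 7998) in CCNA-GFP cells, -0.60 (n = 7224) in CTCF-AID cells without IAA and -0.62 (n = 7037) with IAA, and over the 8 members it was -0.90, -0.88 and -0.74. These points share their libraries, and genes are not independent replicates. Among genes under 10 kb the median share was 39.7%, 75.2% and 71.4%, and among genes over 50 kb 12.9%, 21.3% and 15.0%. Within the class under 10 kb, Idi1 still lay above 98.2%, 96% and 96.9% of genes, and Insig1 above 91.7%, 96.9% and 95.1%. Srebf2, in the class over 50 kb, lay above 62.9%, 76.4% and 78.3% of that class. Any further part of length in the timing of the members was not tested.

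**Figure D4:**
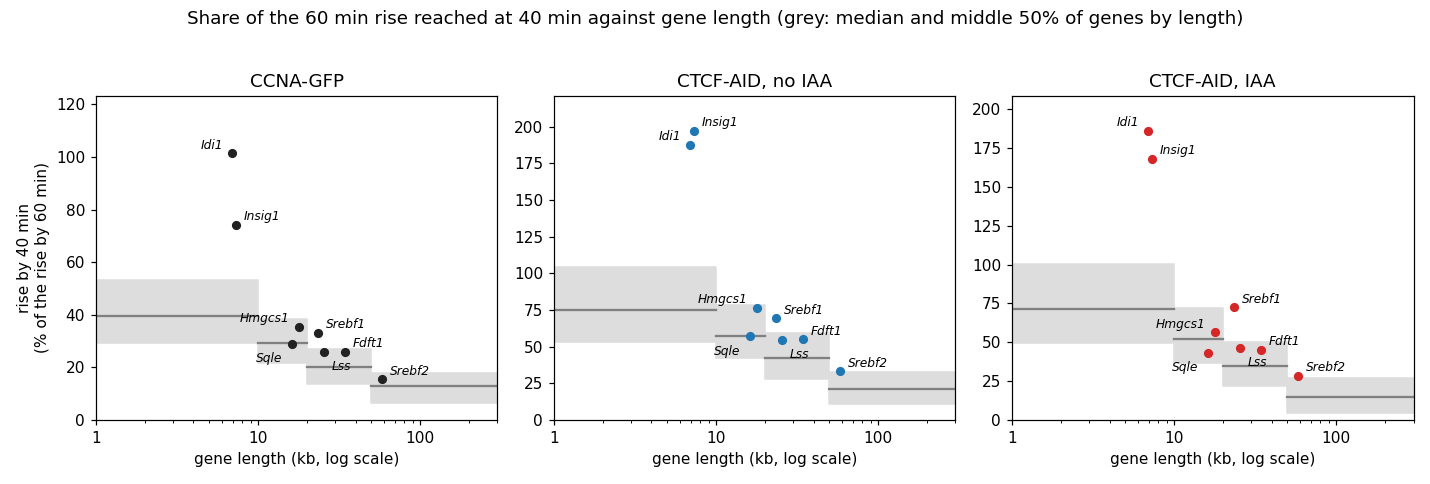
Rise over mitosis at 40 min as a percentage of that at 60 min (y axis) against gene length in kb (x axis, log scale) for the 8 genes, with grey steps for the median and the middle 50% of all genes in 4 length classes. Idi1 and Insig1, the shortest, lie above the band of genes under 10 kb, and Srebf2, the longest, stands lowest of the 8.

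The step from 40 to 60 min split the genes. In CCNA-GFP cells 6 members rose further (all genes 79.5% higher) and 0 fell (all genes 0.212%), while Insig1 was at 0.33 (SE 0.20, adjusted p = 0.135) and Idi1 at -0.01 (SE 0.21, adjusted p = 0.979). With each library divided by its step 4 rose in these cells (all genes 24.8%), the calls of Hmgcs1 (0.39, adjusted p = 0.0911) and Srebf1 (0.28, adjusted p = 0.226) being lost, and with the same total 3 rose (17.4%). Of the members of CTCF-AID cells without IAA, 4 rose (all genes 52.2%) and 2 fell (all genes 2.49%), the latter being Insig1 at -0.65 (SE 0.23, adjusted p = 0.0194) and Idi1 at -0.61 (SE 0.21, adjusted p = 0.0194). With IAA 5 rose (all genes 55.6%) and 1 fell (all genes 2.80%), Idi1, at -0.61 (SE 0.21, adjusted p = 0.0178), and Insig1 was at -0.51 (SE 0.23, adjusted p = 0.0581). Insig1 with IAA was called lower with each library divided by its step (-0.60, adjusted p = 0.0318). It was also called with the filter at a mean of 1 TPM (adjusted p = 0.0494), and was at -0.82 without replicate 2. The falls were smaller and lost their calls without replicate 1, one of 2 libraries at each time. Insig1 was then at -0.34 without IAA, and Idi1 at -0.31 without IAA and -0.23 with IAA. Without the replicate block the falls without IAA kept their size but were not called (adjusted p = 0.084 for Insig1 and 0.0511 for Idi1). In CTCF-AID cells without IAA the calls of Sqle, Fdft1 and Lss also ended without the block. Either other pseudocount ended those of Sqle and Lss there. Without replicate 2 the 4 rises without IAA and 4 of the 5 with IAA were lost. With the same total 1 rose and 2 fell in each arm (all genes 21.2% and 11.9% without IAA, 23.3% and 13.9% with it). The median of all genes over this step was 0.49, 0.25 and 0.28 as deposited.

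After the peak, the members fell further than most genes. From 60 to 120 min 6 of the 8 fell in CCNA-GFP cells (all genes 28.5%), all 8 in CTCF-AID cells without IAA (53.1%) and all 8 with IAA (50.8%). The exceptions were Srebf1 and Srebf2 in CCNA-GFP cells, at -0.30 (SE 0.14, adjusted p = 0.0917) and -0.16 (SE 0.14, adjusted p = 0.365). The median of the members was -0.66, -0.97 and -1.05, beside -0.11, -0.27 and -0.25 for all genes, and every member lay below the all-gene median. Insig1 fell by the most, at -1.44 (SE 0.20, adjusted p = 2.56e-05) in CCNA-GFP cells, -1.49 (SE 0.23, adjusted p = 1.05e-05) without IAA and -1.61 (SE 0.23, adjusted p = 3.62e-06) with IAA. Idi1 was at -1.16 (adjusted p = 0.00026), -1.06 (adjusted p = 0.000225) and -1.11 (adjusted p = 0.000135) in the same order. In the CTCF-AID arms, first without IAA, Fdft1 was at -1.12 (adjusted p = 5.27e-07) and -1.15 (adjusted p = 2.62e-07), and Sqle at -1.14 (adjusted p = 2.14e-07) and -1.13 (adjusted p = 1.47e-07). With the same total the falls numbered 6, 7 and 7, beside 21.7%, 26.5% and 27.2% of all genes. With each library divided by its step 5 fell in CCNA-GFP cells (all genes 13.9%), the call of Hmgcs1 being lost (-0.37, adjusted p = 0.124). Dropping the replicate block ended that call too (adjusted p = 0.0725), and that of Srebf1 without (adjusted p = 0.0572) and with IAA (adjusted p = 0.105). Srebf1 in CCNA-GFP cells was at -0.59 without replicate 2. Without replicate 1 the calls in CCNA-GFP cells were lost for Hmgcs1 (-0.29, adjusted p = 0.297), Sqle (-0.53, adjusted p = 0.0547) and Lss (-0.42, adjusted p = 0.099), and that of Srebf1 with IAA was lost as well (-0.30, adjusted p = 0.0516).

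Against asynchronous cells, the members at 120 min ran on both sides. In CCNA-GFP cells 3 were higher (all genes 63.4%) and 0 lower (all genes 5.86%). The 3 were Srebf1 at 0.61 (SE 0.13, adjusted p = 0.00041), Srebf2 at 0.50 (SE 0.13, adjusted p = 0.0019) and Hmgcs1 at 0.48 (SE 0.13, adjusted p = 0.00306). In CTCF-AID cells without IAA 1 was higher (all genes 51.0%), Srebf1 at 0.52 (SE 0.11, adjusted p = 0.000415), and 2 were lower (all genes 7.25%), Insig1 at -0.81 (SE 0.21, adjusted p = 0.00247) and Sqle at -0.50 (SE 0.11, adjusted p = 0.000858). With IAA 1 was higher and 2 were lower (all genes 47.2% higher and 8.43% lower), Srebf1 at 0.56 (SE 0.11, adjusted p = 0.000201), Insig1 at -0.75 (SE 0.21, adjusted p = 0.00445) and Sqle at -0.41 (SE 0.11, adjusted p = 0.00419).

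The median of the members for this contrast was 0.26, -0.18 and -0.08, below the 0.35, 0.23 and 0.20 of all genes. With the same total 1 member was higher and 1 lower in CCNA-GFP cells (all genes 26.8% and 24.9%), and 1 higher and 7 lower in each CTCF-AID arm (26.9% and 27.7% without IAA, 26.2% and 29.2% with it). With each library divided by its step, the 3 calls in CCNA-GFP cells were lost, at 0.39, adjusted p = 0.0542, for Srebf1, 0.27, adjusted p = 0.19, for Srebf2 and 0.25, adjusted p = 0.239, for Hmgcs1. It also gave 0 higher and 6 lower without IAA (all genes 20.9% and 18.6%) and 1 higher and 3 lower with IAA (23.0% and 18.6%), and moved the median of all genes to 0.17, 0.01 and 0.02. The step was 0.0313 to 0.0367 TPM at 120 min in CCNA-GFP cells. The call of Srebf1 in CTCF-AID cells was lost without replicate 2 (0.40, adjusted p = 0.0537, without IAA, and 0.40, adjusted p = 0.0576, with IAA), that of Sqle with IAA without replicate 1 (-0.25, adjusted p = 0.113), and that of Hmgcs1 in CCNA-GFP cells without replicate 1 (0.36, adjusted p = 0.0817).

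The rest of the pathway was read through lists of its other genes. Of 17 other cholesterol synthesis enzymes, all listed, 17 were higher at 60 min than in mitosis in CCNA-GFP cells (all genes 88.3%) and in both CTCF-AID arms (84.8% and 82.2%), with a median of 1.20, 1.03 and 1.06. Among the largest changes in CCNA-GFP cells was that of Msmo1, a sterol demethylase, at 1.74 (SE 0.13, adjusted p = 3.73e-10). By 120 min 13 of the 17 had fallen from 60 min in CCNA-GFP cells (all genes 28.5%) and all 17 in each CTCF-AID arm (53.1% and 50.8%), with a median of -0.53, -0.72 and -0.62. Against asynchronous cells 7 were lower (all genes 7.25%) and 1 higher (51.0%) at 120 min in CTCF-AID cells without IAA, 4 lower (8.43%) and 2 higher (47.2%) with IAA, and 1 lower (5.86%) and 6 higher (63.4%) in CCNA-GFP cells.

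Other SREBP regulation genes include the escort Scap and the retention factor Insig2. All 8 were higher at 60 min in CCNA-GFP cells (all genes 88.3%), with a median of 0.85, led by Scap at 1.31 (SE 0.12, adjusted p = 3.28e-09) and Insig2 at 0.96 (SE 0.10, adjusted p = 2.9e-08), and 7 of 8 in each CTCF-AID arm (84.8% and 82.2%). From 60 to 120 min 1 fell in CCNA-GFP cells (all genes 28.5%). In each CTCF-AID arm 5 fell (53.1% and 50.8%) and 1 rose (all genes 7.31% without and 7.61% with IAA). Their median over this step was -0.11, -0.27 and -0.26, beside -0.11, -0.27 and -0.25 for all genes. Scap at 120 min remained above asynchronous cells, at 1.21 (SE 0.12, adjusted p = 1.69e-07) in CCNA-GFP cells and 1.30 (SE 0.10, adjusted p = 3.03e-10) in CTCF-AID cells without IAA.

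For the remaining lists the shares of all genes higher at 60 min are those above, 88.3%, 84.8% and 82.2%, and the counts are near them. Of 8 sterol uptake and transport genes 7 were listed, and all 7 were higher at 60 min in both lines and arms, with medians of 1.10, 1.04 and 1.06. The largest changes in CCNA-GFP cells were those of Npc2, a lysosomal cholesterol carrier, at 2.05 (SE 0.13, adjusted p = 1.07e-10), and Mylip, which targets the LDL receptor for degradation, at 1.74 (SE 0.11, adjusted p = 1.07e-10). Of 13 fatty acid synthesis genes 11 were listed in CCNA-GFP cells, where 10 rose, and 12 in CTCF-AID cells, where 9 rose and 2 fell without IAA (all genes 2.70% lower) and 10 rose and 2 fell with it (4.04%). Scd2, a fatty acid desaturase, was at 1.91 (SE 0.15, adjusted p = 7.18e-10) and Acly, which makes cytosolic acetyl-CoA, at 1.74 (SE 0.14, adjusted p = 5.25e-10) in CCNA-GFP cells. Of 5 LXR and sterol efflux genes 4 were listed, and 3 rose in CCNA-GFP cells and 4 in each CTCF-AID arm, Nr1h2, which encodes LXR-beta, at 1.42 (SE 0.13, adjusted p = 5.11e-09) and Abcg1, a sterol exporter, at 0.59 (SE 0.09, adjusted p = 2.5e-06) in CCNA-GFP cells. Among the pluripotency markers all 7 rose there, with Klf4 at 1.92 (SE 0.17, adjusted p = 3.32e-09) and Nanog at 1.22 (SE 0.16, adjusted p = 4.33e-07), so rises of this size were not limited to the sterol pathway.

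Likeness between courses was measured by Pearson's r over 25 stage means of log2(TPM + 1), centred within each table, as a description in which all points share libraries. Among the 28 pairs of members r ran from 0.596 (Insig1 with Srebf2) to 0.975 (Fdft1 with Lss), with a median of 0.875, and Insig1 with Idi1 reached 0.966. Members against other genes had a median of 0.747. Of 6596 other genes whose mean reached 1 TPM, those most like the members' mean included Rap1b (0.994), Tgif2 (0.994) and Msmo1 (0.992), beside a median of 0.791. Of these, Msmo1 encodes an enzyme of the pathway. With every library scaled to the same total, which takes out the rise common to most genes, the median of the other genes moved to -0.046 and that of the member pairs to 0.674. Then Msmo1 stood at 0.967, Insig1 with Idi1 stood at 0.947, and the sterol reductase gene Lbr stood at -0.022. The single gene most like Insig1 and most like Idi1 was in both cases Glul (0.979 and 0.986), and for the rest they were Serac1 for Hmgcs1 (0.990), Csrnp1 for Sqle (0.989), Chka for Fdft1 (0.990), Tfg for Lss (0.988), Ndufs5 for Srebf1 (0.993) and Rcl1 for Srebf2 (0.990).

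The last question was whether the 8 genes responded to loss of CTCF. None of them was called for IAA at any stage. The target itself cannot be checked in these data, since IAA removes the protein, and Ctcf pre-mRNA differed between the arms by -0.05 to 0.24 on the log2 scale over the stages, with no call. Across 64 comparisons of a member at a stage the log2 fold change with IAA ran from -0.22 to 0.22, with standard errors of 0.086 to 0.28.

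**Figure D5:**
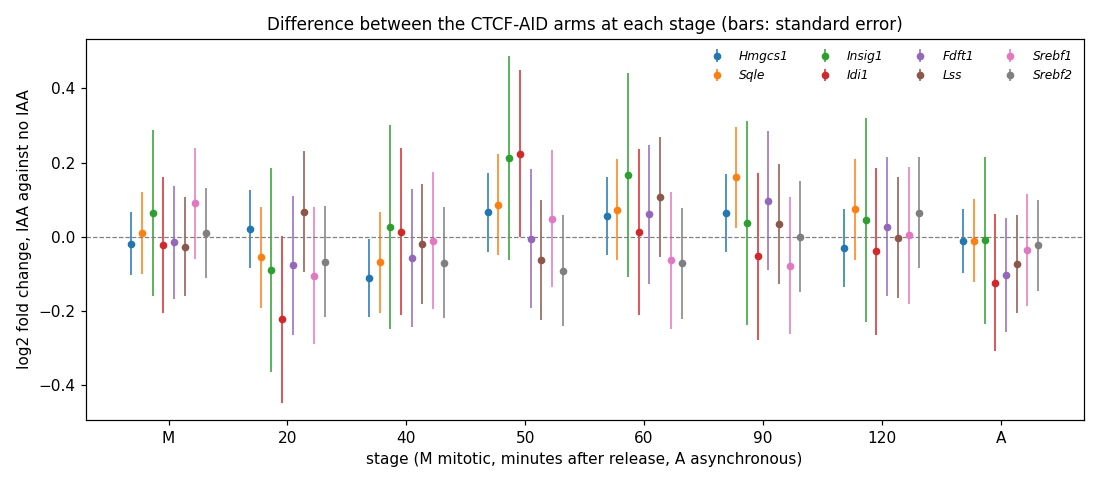
Log2 fold change with IAA against without IAA in CTCF-AID cells (y axis) at each stage (x axis) for the 8 genes, with bars for the standard error. All 64 values lie between -0.22 and 0.22.

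The extremes were both those of Idi1, -0.22 (SE 0.23, adjusted p = 1) at 20 min, where it was 4.26 and 1.85 TPM without and 2.94 and 1.8 TPM with IAA, and 0.22 (SE 0.23, adjusted p = 1) at 50 min, where it was 9.98 and 11 and 12.3 and 12.5 TPM. At 20 min the arms overlapped as groups, though within each replicate the value with IAA was the lower. At 50 min both libraries with IAA were above both without. Insig1 at 50 min was 17.1 and 14.8 TPM without and 20.8 and 16.6 TPM with IAA, 0.21 (SE 0.28, adjusted p = 1). The number of members called (adjusted p under 0.1 and an absolute log2 fold change over 0.2) was 0 of 8 at every stage. For all genes the share called was 0.00% in mitosis, 0.00% at 20 min, 0.00% after 40 min, 0.283% at 50 min, 0.225% after 60 min, 0.733% at 90 min, 0.586% after 120 min and 1.01% in asynchronous cells. No member passed an unadjusted p under 0.05 in limma, the lowest being 0.252, and 0 members passed in the test of the effect over 20 to 60 min against that in asynchronous cells (all genes 0.0195%). The 48 other sterol and fatty acid genes gave 0 calls over 384 values, with a lowest adjusted p of 0.954. With 2 or 3 libraries a stage in each arm and standard errors up to 0.28, changes of 0.2 and larger could have been missed for these genes, which was not tested. In mitosis and at 20 and 40 min the test called none of the genes, while the study, testing read counts, reported early responders. The lack of a member call at those stages therefore decides nothing.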

How the data were processed

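Pre-mRNA levels of 8 genes were read from 2 deposited tables holding 55 libraries, grouped by the sample labels. Column names of the asynchronous CTCF-AID libraries are garbled in the file, and were matched to the labels by arm and replicate number. The authors aligned ribo-depleted, stranded, paired-end reads with STAR on mm10 and estimated levels with RSEM on Gencode vM12 to which a pre-mRNA isoform of each gene was added (versions are not given in the sources used here). The deposited values are TPM, and the authors kept genes above a minimum level. Low values of a library are whole multiples of a step (0.0184 to 0.0381 TPM), which was read from the values and is explained in no source used here. TPM keeps no read depth, so the depth behind each value is unknown and no counting interval is given.

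From these values limma 3.58.1 in R 4.3.3 was fitted to log2(TPM + 1) over all genes of a table (lmFit, eBayes with a trend), so fold changes understate those of low genes. Stages were compared with the replicate number as a block, since the study takes fold changes within replicates, at a Benjamini-Hochberg adjusted p under 0.05. No call was made at 50 min in CCNA-GFP cells, which had 1 library. Both CTCF-AID arms were fitted together, and IAA was tested without a block at an adjusted p under 0.1 and an absolute log2 fold change over 0.2. The study calls its replicates independent, and p-values measure the spread between these libraries. In CCNA-GFP cells same-numbered libraries deviated together in 20 of 20 pairs of stages (r from 0.18 to 0.84, median 0.54).

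The members and gene lists were chosen with earlier results of these data known. The text names the members, Ctcf, and for each other list the 2 genes with the largest change at 60 min in CCNA-GFP cells, and by likeness of course the 5 genes nearest the members' mean and the nearest one of each member. Some genes that this rule names are not reported here. Scap and Lbr at other contrasts, the motif letters, the comparison of 60 with 40 min, the share of the rise by 40 min, the length classes and the rescaled likeness were chosen after values were seen. Alternatives were other pseudocounts (0.1 and 0.5), the same total for every library, each library divided by its own step, a filter at a mean of 1 TPM, no trend, the block added or dropped, and each replicate left out.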

Additional observations from a re-analysis of the deposited data

Results flagged for a closer look

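In 5 comparisons each replicate of CCNA-GFP cells moved one way and each replicate of CTCF-AID cells without IAA the other way, on the log2(TPM + 1) scale within replicates. The difference between the lines was not tested, each mean rests on 2 replicates, and the tables were normalised separately. In the model fitted to all genes the CCNA-GFP values of these comparisons, in the order below, were at -0.11, -0.16, -0.26, -0.21 and -0.09 relative to the all-gene median. With every library scaled to the same total all 5 turned negative, the direction of CTCF-AID cells, to -0.098, -0.35, -0.35, -0.24 and -0.07, with no call. The values of CTCF-AID cells without IAA moved down as well under that scaling, to -0.71, -0.96, -1.15, -0.60 and -0.50. Each thus stayed below that of CCNA-GFP cells. Sqle at 120 min against mitosis was at 0.58 in CCNA-GFP cells (0.46 and 0.71 in the replicates) and at -0.35 in CTCF-AID cells (-0.50 and -0.20). Insig1 at 60 min against 40 min was at 0.33 (0.25 and 0.40) and at -0.65 (-0.96 and -0.34). Insig1 at 120 min against asynchronous cells was at 0.03 (0.0031 and 0.064) and at -0.84 (-0.97 and -0.72). Idi1 in the same comparison was at 0.08 (0.069 and 0.083) and at -0.35 (-0.44 and -0.26), and Lss at 0.29 (0.28 and 0.29) and at -0.23 (-0.39 and -0.08).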

How the results depend on the processing

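Other settings, given below, moved some single counts further, but scaling every library to the same total changed the call or direction of the most values. Members called above mitosis then numbered 14 of 56 in CCNA-GFP cells in place of 38, 23 in place of 32 without IAA and 18 in place of 35 with IAA, and those below it 1 in place of 0, 10 in place of 1 without IAA and 13 in place of 0 with IAA. At 120 min against asynchronous cells 3 calls were higher in place of 5 and 15 lower in place of 4, and 5 calls rose from 40 to 60 min in place of 15. Among values called with or without this scaling, 31 turned negative, as did 19 of 63 stage values called in neither. The 31 are given next. At 120 min against mitosis they were -0.098 for Sqle, -0.015 for Insig1 and -0.16 for Fdft1 in CCNA-GFP cells, -0.26 for Hmgcs1, -0.47 for Fdft1, -0.27 for Lss and -0.25 for Srebf2 without IAA and -0.29 for Hmgcs1, -0.44 for Fdft1, -0.26 for Lss, -0.014 for Srebf1 and -0.21 for Srebf2 with IAA. At 90 min they were -0.20 for Hmgcs1, -0.43 for Sqle, -0.30 for Fdft1 and -0.096 for Srebf2 without IAA and -0.13 for Hmgcs1, -0.30 for Sqle, -0.20 for Fdft1, -0.076 for Lss and -0.12 for Srebf2 with IAA. At 120 min against asynchronous cells they were -0.21 for Hmgcs1 without IAA and -0.21 for Hmgcs1, -0.28 for Fdft1 and -0.23 for Srebf2 with IAA. In asynchronous cells against mitosis they were -0.029 for Fdft1 and -0.17 for Srebf1 in CCNA-GFP cells and -0.16 for Fdft1 with IAA. At 40 and 50 min they were -0.070 for Srebf2 at 40 min without IAA and, with IAA, -0.12 for Srebf2 at 40 min and -0.058 for Srebf2 at 50 min. Dividing each library by its own step gave 1 member below mitosis with IAA in place of 0, and 1 higher and 9 lower at 120 min against asynchronous cells. Dividing by the step ended 9 member calls and added 19 in all, with none turned. The cause of these differences was not tested.

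Without the replicate block, 221 of 240 stage values kept their call and 19 lost it, and 3 calls at 120 min against asynchronous cells were higher and 1 call fell from 40 to 60 min, in place of 5 and 3. In CTCF-AID cells 47 of 48 pairs of stages deviated together by number at r over 0.1 (lowest r 0.054, median 0.61). With a replicate block all 72 IAA values remained uncalled, as did all 64 in fits of a stage alone.

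Leaving out each replicate in turn gave 37 to 39 members above mitosis in CCNA-GFP cells and 0 to 0 below, 26 to 37 above and 0 to 2 below without IAA, and 25 to 40 above and 0 to 1 below with IAA. From 60 to 120 min 18 to 23 fell in place of 22. At 120 min against asynchronous cells 3 to 6 were higher and 3 to 5 lower, and from 40 to 60 min 7 to 17 rose and 0 to 4 fell. Where this leaves 1 library at a stage, that library is assumed to vary like the others. No member was called for IAA under any of these settings. The other pseudocounts, the minimum of 1 TPM and the fit without a trend kept the call of 306 to 309 of 312 values.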
